A study of Mus musculus with 8 samples.

Results

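Runx1, Runx2, Runx3, Cbfb, Sp7, Dlx5, Mef2c, Hdac4, Foxa2 and Foxa3 encode regulators of chondrocyte hypertrophy, and these 10 genes were taken by symbol from the 24067 genes of the deposited expression table. All 10 were found once each. RNA had been sequenced from primary articular chondrocytes, isolated at the knee (condyles of the femur, plateaus of the tibia) of ICR mice aged 5 days, after transfection with 50 nM of a miR-204 mimic or of a control small RNA, miR-Ctrl. Transfection took 24 h and the cells were harvested 24 h after it ended. There were 4 libraries per group, numbered 1 to 4 in each, and cells of both groups were cultured at 3% oxygen, with no genetic change named in the labels. The sources used here do not say how many animals were pooled, whether the libraries came from separate cultures or which arm of miR-204 the mimic carried, so a p-value here reflects library-to-library spread alone, which may be technical.

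Hypertrophy is the step in which growth plate chondrocytes enlarge, switch from type II to type X collagen and prepare the matrix for mineral. RUNX2 and, with overlapping function, RUNX3 drive this step. RUNX proteins bind DNA together with CBFB, and MEF2C and the FOXA factors act on many of the same genes. HDAC4 holds MEF2C and RUNX2 back, while DLX5 and SP7 belong to the programme that chondrocytes share with osteoblasts. A microRNA lowers a transcript mainly by pairing of its seed, bases 2 to 8 of the small RNA, with the 3′ UTR, and Runx2 is a reported target of miR-204.

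The mature sequences below show the seed in capitals. They come from RefSeq (GRCm38.p6), in which 3 mouse microRNAs shared the seed UCCCUUU. miR-204-5p lies on chromosome 19 (22750610 to 22750631, plus strand), and miR-211-5p differs from it only outside the seed.
miR-204-5p: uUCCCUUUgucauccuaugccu
miR-211-5p: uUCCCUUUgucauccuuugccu
miR-7670-3p: uUCCCUUUcugaauaucuguaga

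Matches to the seed were searched on the sense strand of each gene's longest 3′ UTR (GENCODE M21, the mm10 assembly). An 8mer is AAAGGGAA, a 7mer-m8 AAAGGGA, a 7mer-A1 AAGGGAA and a 6mer AAGGGA, and each match was counted once under its longest form. A 7mer or 8mer was found in 6 of the 10 regulators, Runx2, Runx3, Sp7, Mef2c, Hdac4 and Foxa2, and in 24.0% of the 11212 tested genes with a 3′ UTR. Runx1, Cbfb, Dlx5 and Foxa3 had no match of any form in that UTR. A match is a run of letters and not a shown binding site. The shares were not adjusted for the length of the UTR, which ran from 637 nucleotides in Foxa2 to 4568 in Hdac4.

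The windows of 30 bases below carry 7mer matches of Runx2 and Foxa2, the 2 regulators that were lower with miR-204 in the paired test given further on, and the 8mers of Runx3 and Mef2c, which were not. They are written 5′ to 3′ on the strand of the gene, and capitals mark the match.
Runx2, first 7mer-m8: tcagatgtggtgcactcagAAAGGGAcaag
Runx2, 7mer-A1: agtttacagtacagttatcAAGGGAAtaga
Runx2, second 7mer-m8: tgagtttactctgaacttcAAAGGGActat
Foxa2, 7mer-A1: tctgtcattctaaatagggAAGGGAAtgga
Runx3, 8mer: atccatgcccatcaaaccAAAGGGAAactc
Mef2c, 8mer: aagaaaggaaaggaaaggAAAGGGAAaaaa

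Runx2 (chromosome 17, 44495987 to 44814797, minus strand) had its 7mer-m8 matches at 44607491 to 44607497 and at 44604117 to 44604123, and its 7mer-A1 at 44605394 to 44605400. All 3 lay in exon 9 of 9, in the 3′ UTR. The first 7mer-m8 was present in 3 of 6 annotated coding transcripts with a 3′ UTR and the other 2 matches in 2 of 6. Foxa2 (chromosome 2, 148042877 to 148046969, minus strand) had, among its matches, a 7mer-A1 at 148043324 to 148043330, in the last of 3 exons. Runx3 (chromosome 4, 135120652 to 135177990, plus strand) had its 8mer at 135176293 to 135176300, in exon 6 of 6 and in 1 of 2 such transcripts. Mef2c (chromosome 13, 83504034 to 83667080, plus strand) had the 8mer of its longest 3′ UTR at 83663246 to 83663253, in exon 11 of 11 and in 11 of 13 transcripts.

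**Figure D1:**
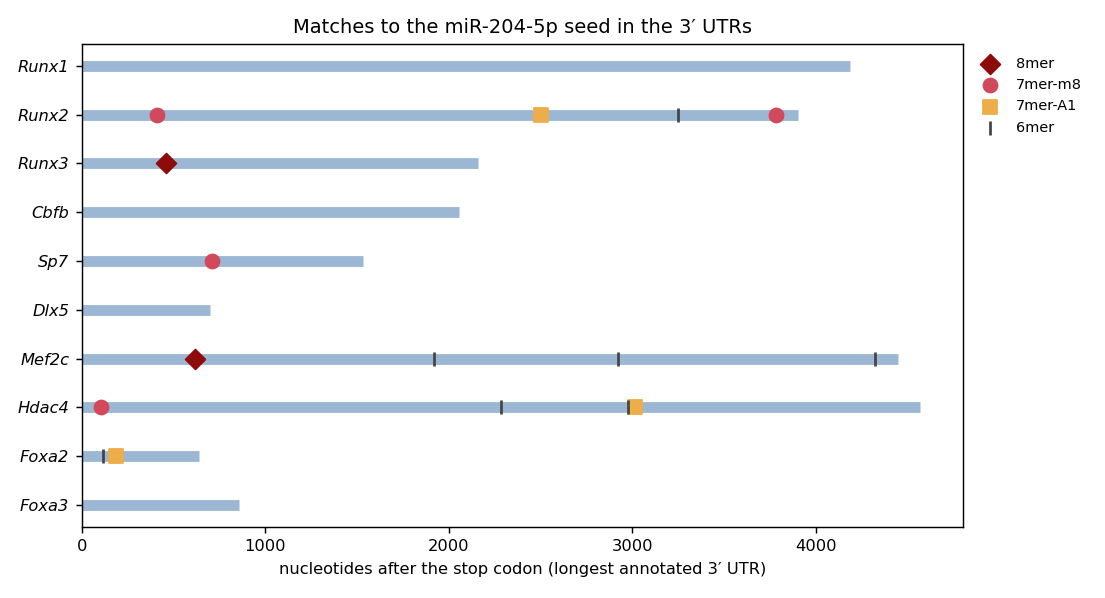
Position of the reported matches to the miR-204-5p seed along the longest annotated 3′ UTR, in nucleotides after the stop codon. Bars are the UTRs, from 637 nucleotides in Foxa2 to 4568 in Hdac4, and symbols give the form of match. Runx3 and Mef2c carry the 8mers, and Runx1, Cbfb, Dlx5 and Foxa3 carry no match.

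Libraries were similar in depth apart from replicate 2. Depth relative to miR-Ctrl replicate 1, read from the steps between low values, was 0.772 and 0.798 in the miR-Ctrl and miR-204 libraries of replicate 2 and at least 0.929 in the others. Both replicate 2 libraries stood apart: Saa3, an acute-phase gene, was at 26618 and 16455 FPKM there and at no more than 225 in the other 6, and Acan, the aggrecan gene, was at 386 and 407 FPKM against at least 959. FPKM divides a gene's fragments by its length and by the library's mapped total, so levels of different genes can be set side by side. Chondrocyte markers bore out the label, with a sum of 11335 to 36758 FPKM over the 8 of 9 listed symbols found. The 6 osteoblast markers summed to 749 to 1454 FPKM with miR-Ctrl and 697 to 1538 with miR-204, nearly all of it Col1a1. All 5 leukocyte and all 5 endothelial markers were below 1 FPKM in every library, with Cd3e and Cldn5 at 0 throughout. Of the skeletal muscle markers, Myod1, Myog, Ckm and Des were below 1 FPKM everywhere and Acta1 was between 0.726 and 8.37. The sum of the 5 smooth muscle and pericyte markers was 135 to 171 FPKM with miR-Ctrl and 230 to 326 with miR-204, carried by Acta2 and Tagln. The sum of the 4 macrophage and osteoclast markers found was 10.2 to 36.4 and 18.3 to 49.4. Of these, Csf1r was at no more than 0.193. Cd68 was at 0.545 to 2.22 FPKM with miR-Ctrl and at 2.76 to 4.75 with miR-204. The groups did not overlap for Cd68, which held in that direction for 4.32% of all genes averaging 1 FPKM or more. Acp5 (5.12 to 8.71 and 8.39 to 14.6) and Ctsk (4.44 to 25.6 and 6.34 to 29.9) overlapped. Their part in the results below was not tested.

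Cbfb, the shared partner of the RUNX proteins, was the most abundant of the 10, at 27.98 FPKM over the 8 libraries, and its range (23.2 to 34.9) did not meet that of any other. Dlx5 (7.13), Runx3 (5.89), Runx1 (5.76), Runx2 (5.08), Mef2c (4.55), Foxa2 (2.72), Sp7 (2.72) and Hdac4 (2.46) followed in order of mean FPKM. Each of these overlapped the next in its range over libraries. Foxa3 was the lowest, at 1.45 FPKM, and its range (1.14 to 1.80) lay below that of Hdac4 (1.89 to 3.10). Foxa1, the third FOXA gene, was at no more than 0.0411 FPKM. All 10 regulators passed the filter of a mean of 1 FPKM.

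**Figure D2:**
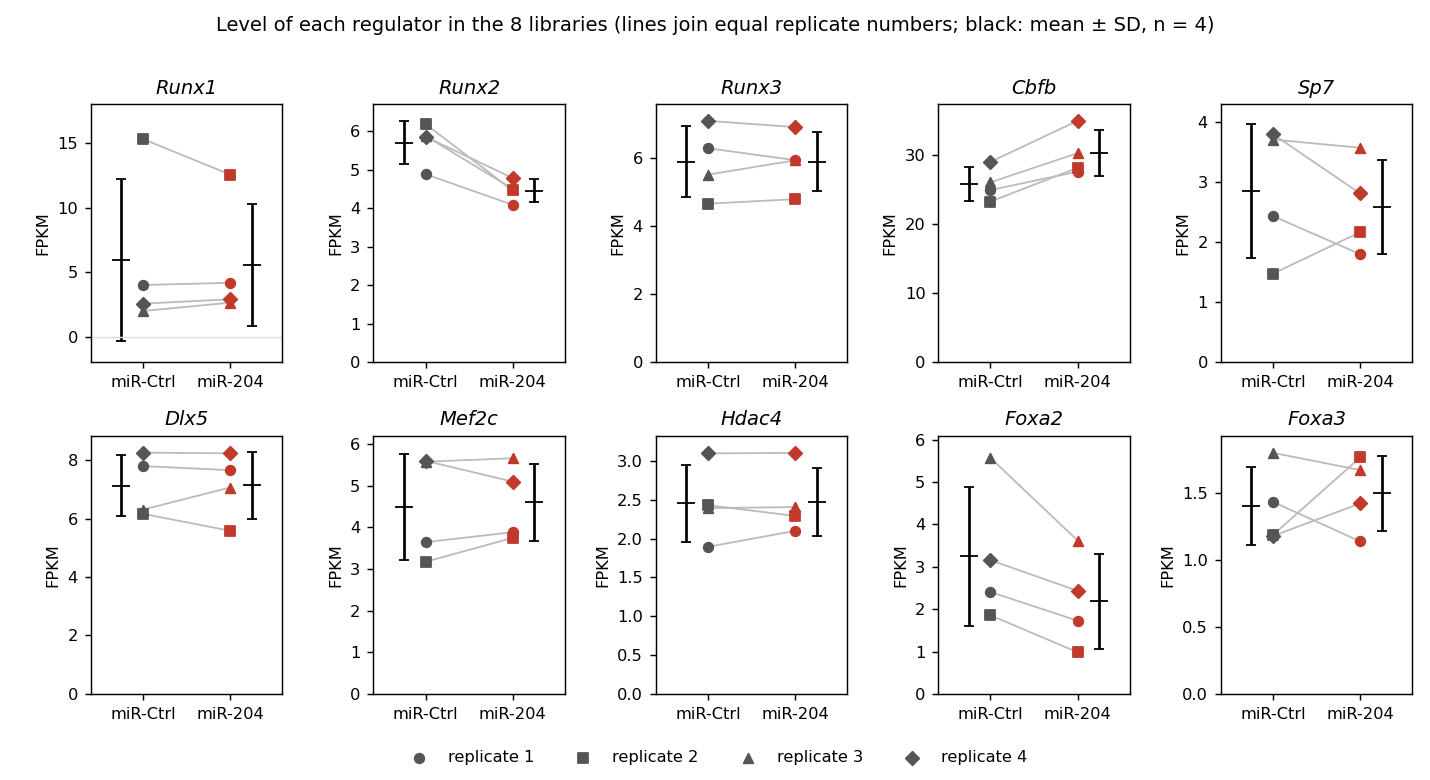
FPKM of each regulator in the 8 libraries, 1 panel per gene with its own axis. Symbols are replicate numbers, grey lines join libraries of equal number, and black bars give the mean ± SD of 4 libraries. Runx2 and Foxa2 are lower with miR-204 along all 4 lines and Cbfb is higher along all 4, while the square marking replicate 2 lies far above the rest for Runx1.

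The comparison asked which of these regulators differed after the miR-204 mimic. It was made with limma on log2(FPKM + 1) over the 11612 genes averaging 1 FPKM or more, with Benjamini-Hochberg adjustment over all of them and a threshold of 0.05. Without regard to replicate number, 0 of the 10 were higher and 0 lower, where 0.0258% of all tested genes were higher and 0.181% lower. At an unadjusted p below 0.05, Cbfb was higher and Runx2 lower, against 6.57% and 2.02% of all tested genes. Libraries of equal number resembled each other, and in the fit with the number as a block, here called the paired test, 1 of the 10 was higher (Cbfb) and 2 were lower (Runx2 and Foxa2). Of all tested genes 12.4% were higher and 2.83% lower in that test, so the share of regulators called higher was close to that of all genes. With libraries centred on their median, 0 were higher and Runx2 and Foxa2 were lower, where all tested genes gave 4.99% and 4.32%. The median log2 fold change was 0.0085 over the 10 regulators and 0.064 over all tested genes. In bulk RNA, fewer cells of a type and less of a transcript per cell cannot be told apart.

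**Figure D3:**
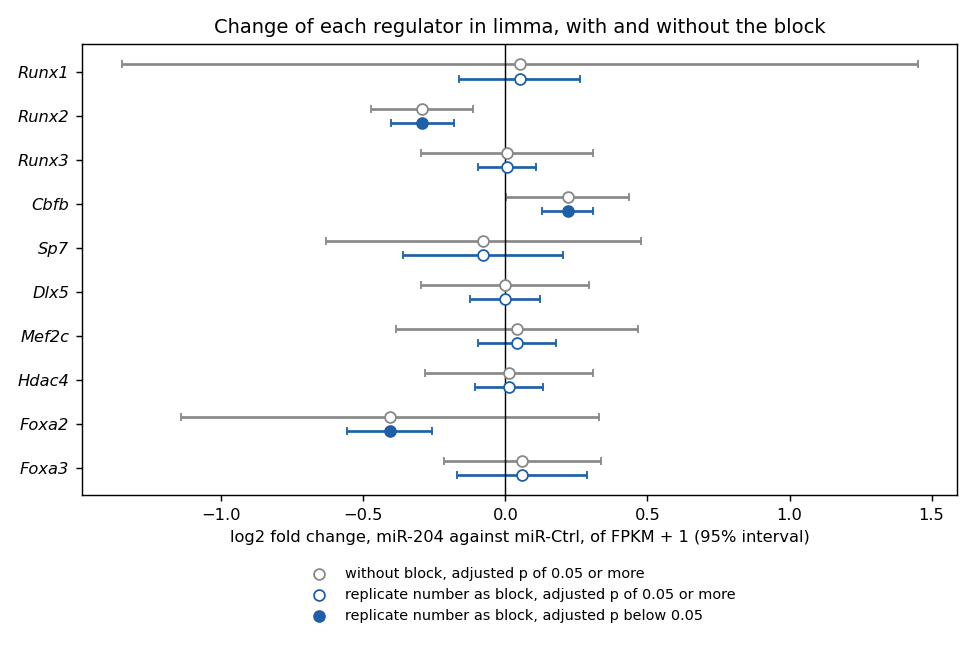
Log2 fold change of FPKM + 1, miR-204 against miR-Ctrl, for each regulator, with 95% intervals from limma without the block (grey) and with it (blue). Filled points have an adjusted p below 0.05. Only Runx2, Cbfb and Foxa2 are filled, in the blocked fit, and the interval of Runx1 shortens from -1.35 to 1.45 without the block to -0.16 to 0.26 with it.

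Runx2 (gene ID 12393), the main driver of hypertrophy and of bone formation, was at 4.88, 6.18, 5.87 and 5.85 FPKM in miR-Ctrl libraries 1 to 4 and at 4.08, 4.46, 4.50 and 4.78 in miR-204 libraries 1 to 4. The groups did not overlap, which held in that direction for 1.58% of all tested genes. The mean went from 5.70 ± 0.564 to 4.46 ± 0.286 FPKM (SD, n = 4). Within equal numbers the changes in Runx2 were -16.3%, -27.9%, -23.4% and -18.3%, and 7.44% of all tested genes were lower in all 4 pairs. Its log2 fold change was -0.29 ± 0.078 (SE) without the block, with an adjusted p of 0.290, and -0.29 ± 0.046 with it, with an adjusted p of 0.0152. The paired call was lost without replicate 1 (adjusted p = 0.0562), without replicate 3 (0.0629) and without replicate 4 (0.0781), at fold changes of -0.32, -0.28 and -0.31, and it held without replicate 2 (-0.26, adjusted p = 0.0128). Such losses were not particular to Runx2. Over all tested genes 329 were lower in the paired test, and 93, 153 and 82 were without replicate 1, 3 or 4. Supt3, which overlaps the Runx2 locus on the opposite strand but shares no annotated exon base with it, was at 6.45 to 9.23 FPKM with miR-Ctrl and 6.94 to 9.01 with miR-204. The libraries were stranded, and no source used here says whether the authors' quantification used strand, so reads of antisense transcripts at this locus (Runx2os1, Runx2os2 and Runx2os3) may not be separated.

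Runx1 (12394), which is active early in cartilage formation and in blood cells, was at 4.00, 15.3, 1.98 and 2.55 FPKM with miR-Ctrl and at 4.17, 12.6, 2.63 and 2.90 with miR-204. Both replicate 2 libraries were the high ones, and the other 6 lay between 1.98 and 4.17. It passed neither test (log2 fold change 0.050, adjusted p = 0.994 unpaired and 0.724 paired), and the paired 95% interval was -0.16 to 0.26. The change was downward in pair 2 (-0.27) and upward in pairs 1, 3 and 4 (0.050, 0.28 and 0.13). The sum of the 5 leukocyte markers in both replicate 2 libraries was 0.291 and 0.247 FPKM, against 0.0290 to 0.267 in the other 6. Ibsp, a gene of mineralizing cells, was at 12.1 and 14.3 FPKM in replicate 2 and at no more than 3.57 elsewhere. Of the 6 listed osteoblast markers, Ibsp and Bglap were higher in both replicate 2 libraries than in any of the other 6 libraries. Sp7, Bglap2, Dmp1 and Col1a1 were not. The sum of these markers, nearly all Col1a1, was 966 and 950 FPKM in replicate 2, inside the range elsewhere (697 to 1538). Whether replicate 2 held more mineralizing cells was not tested. Of all tested genes, 30.5% were higher in both replicate 2 libraries than in any of the other 6, so this pattern was not particular to Runx1.

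Runx3 (12399), which shares the role of Runx2 in hypertrophy, was at 6.28, 4.66, 5.51 and 7.09 FPKM with miR-Ctrl and at 5.94, 4.79, 5.93 and 6.91 with miR-204. It was lower in both replicate 2 libraries than in the other 6, as were 8.98% of all tested genes. The groups covered the same range, and 2 pairs went up and 2 down. The log2 fold change was 0.0051, with a paired 95% interval of -0.098 to 0.11 and an adjusted p of 0.947 paired. This gene held 1 8mer, the longest form of match, whereas Runx2 held none. Over all tested genes with a 3′ UTR, the median log2 fold change was -0.0055 where the longest match was an 8mer. It was 0.026 for a 7mer-m8, 0.046 for a 7mer-A1, 0.061 for a 6mer and 0.078 without a match. These medians were not tested and not adjusted for the length of the UTR.

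The summed FPKM of Runx1, Runx2 and Runx3 was 13.1 to 15.5 in the libraries of replicates 1, 3 and 4 and 26.2 and 21.8 in the miR-Ctrl and miR-204 libraries of replicate 2. Runx2 made up 32.2%, 23.6%, 43.9% and 37.8% of that sum in miR-Ctrl libraries 1 to 4 and 28.8%, 20.4%, 34.4% and 32.8% in miR-204 libraries 1 to 4. Its share was thus smaller with miR-204 in each of the 4 pairs. Runx1 made up 58.6% and 57.6% of the sum in replicate 2 and at most 29.4% elsewhere.

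**Figure D4:**
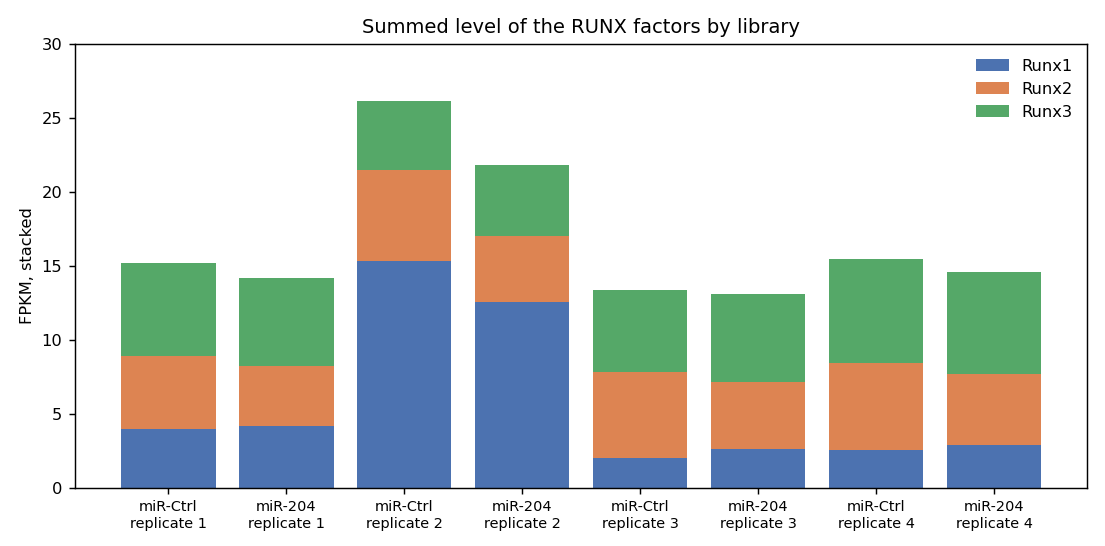
FPKM of Runx1, Runx2 and Runx3 stacked for each library, with libraries of equal replicate number side by side. The replicate 2 bars are taller through Runx1, and the Runx2 segment is shorter in the miR-204 library of every pair.

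Cbfb (12400), whose product raises the affinity of RUNX proteins for DNA and protects them from degradation, was at 24.9, 23.2, 26.0 and 29.0 FPKM with miR-Ctrl and at 27.6, 28.1, 30.2 and 34.9 with miR-204. The groups overlapped, since the miR-Ctrl library of replicate 4 exceeded the miR-204 libraries of replicates 1 and 2. Within equal numbers Cbfb was higher by 10.8%, 21.0%, 16.2% and 20.5%, and 33.9% of all tested genes were higher in all 4 pairs. The log2 fold change was 0.22 ± 0.094 (SE) without the block, with an adjusted p of 0.575, and 0.22 ± 0.037 with it, with an adjusted p of 0.0175. The paired call was lost with centred libraries (0.16, adjusted p = 0.0544), with quantile normalization (0.16, 0.0582), and without replicate 1, 3 or 4 (0.0603, 0.0656 and 0.108, at fold changes of 0.24, 0.22 and 0.21). It held without replicate 2 (0.20, adjusted p = 0.0144). Over all tested genes 1436 were higher in the paired test, and 137, 264 and 88 were without replicate 1, 3 or 4. Cbfb ran against Runx2 in every pair, and the ratio of Cbfb to the RUNX sum was 1.64, 0.888, 1.95 and 1.87 with miR-Ctrl and 1.94, 1.29, 2.31 and 2.39 with miR-204.

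Sp7 (170574), the osterix gene needed for bone formation downstream of Runx2, was at 2.43, 1.47, 3.70 and 3.79 FPKM with miR-Ctrl and at 1.80, 2.16, 3.57 and 2.81 with miR-204. It was lower with miR-204 in pairs 1, 3 and 4 and higher in pair 2, and the groups overlapped. The log2 fold change of -0.078 passed neither test (adjusted p = 0.968 unpaired and 0.671 paired), with a wide paired 95% interval of -0.36 to 0.20. Sp7 held 1 7mer-m8. Dlx5 (13395), a homeobox gene that promotes chondrocyte and osteoblast maturation, was at 7.79, 6.16, 6.31 and 8.25 FPKM with miR-Ctrl and at 7.66, 5.58, 7.06 and 8.23 with miR-204. Its log2 fold change was -0.0015, with a paired 95% interval of -0.12 to 0.12. Like Runx3, Dlx5 was lower in both replicate 2 libraries than in the other 6.

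Mef2c (17260), which switches on Runx2 and Col10a1 in growth plate chondrocytes, was at 3.64, 3.17, 5.57 and 5.60 FPKM with miR-Ctrl and at 3.88, 3.75, 5.66 and 5.10 with miR-204. Libraries of replicates 3 and 4 were the high ones in both groups, and the groups overlapped. The log2 fold change was 0.041, with a paired 95% interval of -0.096 to 0.18 and a paired adjusted p of 0.650. Mef2c held 1 8mer and 3 6mers in its longest 3′ UTR, and 2 8mers over all annotated coding transcripts. Hdac4 (208727), a deacetylase that binds and restrains MEF2C, was at 1.89, 2.43, 2.39 and 3.10 FPKM with miR-Ctrl and at 2.10, 2.29, 2.41 and 3.10 with miR-204. Its log2 fold change was 0.012, with a paired 95% interval of -0.11 to 0.13 and a paired adjusted p of 0.889. Hdac4 held 1 7mer-m8, 1 7mer-A1 and 2 6mers, and the libraries of replicate 4 were its highest in both groups.

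Foxa2 (15376), a forkhead factor expressed in hypertrophic chondrocytes, was at 2.41, 1.86, 5.57 and 3.16 FPKM with miR-Ctrl and at 1.73, 0.983, 3.62 and 2.43 with miR-204. Replicate 3 was the highest and replicate 2 the lowest in both groups, and the groups overlapped. The means were 3.25 ± 1.64 and 2.19 ± 1.12 FPKM (SD, n = 4). Within equal numbers the changes in Foxa2 were -28.2%, -47.0%, -35.0% and -23.0%, the lowest of the 10 genes in pairs 1 to 3, while Sp7 was lower in pair 4 (-26.0%). The log2 fold change was -0.41 ± 0.32 (SE) without the block, with an adjusted p of 0.772, and -0.41 ± 0.062 with it, with an adjusted p of 0.0139. With 0.1 FPKM in place of 1 added before the logarithm, it was -0.57, with a paired adjusted p of 0.0163. The paired call was lost without replicate 1, 3 or 4 (adjusted p = 0.0564, 0.0612 and 0.0572), at fold changes of -0.44, -0.37 and -0.45, and held without replicate 2 (-0.37, adjusted p = 0.0120). Calls over all tested genes also became fewer without those replicates, as given for Runx2. In the unpaired fit, leaving out miR-Ctrl replicate 3 gave a fold change of -0.17, and leaving out miR-204 replicate 2 gave -0.20.

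Foxa3 (15377), which acts alongside Foxa2 in hypertrophic chondrocytes, was at 1.43, 1.19, 1.80 and 1.18 FPKM with miR-Ctrl and at 1.14, 1.77, 1.67 and 1.42 with miR-204. It was lower with miR-204 in pairs 1 and 3 and higher in pairs 2 and 4. The log2 fold change of 0.059 passed neither test, with a paired 95% interval of -0.17 to 0.29. The ratio of Foxa2 to Foxa3 was 1.68, 1.56, 3.09 and 2.68 with miR-Ctrl and 1.52, 0.557, 2.17 and 1.71 with miR-204, so Foxa2 was the lower of them only in miR-204 replicate 2.

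By the rule for similar patterns, the tested genes with the highest Pearson r to Runx2 over the 8 libraries on the log2(FPKM + 1) scale were Crkl (0.962), Kptn (0.953), Jarid2 (0.949) and Kctd18 (0.944). Crkl encodes a signalling adaptor and Jarid2 a component of Polycomb repressive complex 2. Their log2 fold changes were -0.19, -0.30, -0.39 and -0.43, a direction that their likeness to Runx2 over the same libraries largely fixed. A 7mer-m8 or an 8mer was present in all 4. Of the tested genes with a 3′ UTR, 8.95% held a 7mer-m8 as their longest match and 6.91% an 8mer. The 4 genes were chosen by likeness to a gene that was lower with miR-204, so their matches are not independent evidence. For Foxa2 the most similar were Cdkn1c (0.993), an imprinted inhibitor of cyclin-dependent kinases, Igf2 (0.973), an imprinted growth factor, Pxdc1 (0.960) and Inppl1 (0.958). Their log2 fold changes were -0.45, -0.14, -0.36 and -0.11, and were not independent of that choice either. None of these 4 held a 7mer or 8mer, forms that 24.0% of the tested genes with a 3′ UTR held. So few genes, chosen by likeness, cannot show a difference in matches between Runx2 and Foxa2. The 8 libraries shared pairs and the groups, so these values are descriptions.

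Other regulators that bind or control these factors were described as a list of 42 genes, of which 31 were tested. Without the block, 0 were higher and 0 lower by limma, with 0 and 1 at an unadjusted p below 0.05. In the paired test 3 rose and 3 fell, where 12.4% of all tested genes were higher and 2.83% lower, so the share that rose was close to that of all genes. The median log2 fold change was 0.021, against 0.064 over all tested genes. Pth1r (-0.31, paired adjusted p = 0.0157), the receptor through which parathyroid hormone-related protein delays hypertrophy, Wwtr1 (-0.25, 0.0234), the TAZ coactivator that binds RUNX2, and Zfp521 (-0.18, 0.0333), a repressor of RUNX2, fell. Twist2 (0.27), an inhibitor of RUNX2, Smurf2 (0.21), a ubiquitin ligase, and Yap1 (0.15) rose, and none of these 3 rises passed with centred libraries (adjusted p = 0.113, 0.0592 and 0.163). With centred libraries 0 rose and 5 fell, against 4.99% and 4.32% of all tested genes, the further ones being Foxc1 (-0.23) and Sox9 (-0.19), the chondrocyte master factor. Among MEF2C relatives and class IIa deacetylases, Mef2a (0.11), Mef2d (-0.11), Hdac5 (-0.014) and Hdac7 (0.18) did not pass either fit, and Mef2b and Hdac9 were below the filter.

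Of 20 genes listed for hypertrophy and mineralization, 17 were tested. Without the block, 0 were higher and 0 lower by limma, with 1 and 1 at an unadjusted p below 0.05. In the paired test 2 rose and 2 fell, against 12.4% and 2.83% of all tested genes, and the share that rose was again close to that of all genes. The median log2 fold change was 0.12, against 0.064 over all tested genes. Alpl, a phosphatase of mineralizing cells, was at 6.99, 9.94, 7.12 and 8.11 FPKM with miR-Ctrl and at 3.56, 6.63, 3.68 and 4.48 with miR-204. It fell by 0.71 on the log2 scale (adjusted p = 0.247 unpaired and 0.00350 paired). Pth1r, which is also on this list, fell, and Cd44 (0.51), the hyaluronan receptor, and Enpp1 (0.39), which makes pyrophosphate, rose, also with centred libraries. Col10a1, the collagen that marks hypertrophic cells, was at 17.3, 9.70, 52.7 and 46.6 FPKM with miR-Ctrl and at 20.8, 7.91, 39.8 and 56.1 with miR-204. It was high in replicates 3 and 4 of both groups, as Mef2c and Sp7 were, and passed neither test (-0.037, adjusted p = 0.997 unpaired and 0.858 paired). Spp1 (0.54, paired adjusted p = 0.236) and Mmp13 (-0.20, 0.467), of highest mean, did not pass. Neither did Ibsp (0.45, 0.175), Bglap (0.42, 0.152) and Bglap2 (0.52, 0.225). The fold change was above 0 in 11 of the 17 genes and in 8609 of all 11612 tested genes.

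Runx2 was set beside 16 genes reported as miR-204 targets, itself included, some of which were chosen on these samples by the study and so are not independent evidence of their direction. Of the 15 tested, 0 were higher and 1 lower unpaired, and 0 were higher and 8 lower in the paired test, where 12.4% and 2.83% of all tested genes were. The median was -0.18, against 0.064 over all tested genes. Runx2 had the seventh lowest fold change of the 15. The lower ones included Hapln1 (-1.04), the link protein of cartilage, Rab22a (-0.93), an endosomal GTPase, Tgfbr2 (-0.76), a TGF-beta receptor, Slc35d1 (-0.57), M6pr (-0.36) and Ntrk2 (-0.35). Rab22a and Runx2 held a 7mer-m8 as their longest match, and Hapln1, Tgfbr2, Slc35d1 and Ntrk2 held an 8mer. An 8mer was also present in 4 of the 7 tested targets that did not pass the paired test, Foxc1 (-0.17), Sirt1 (-0.065), Bcl2 (0.058) and Hmga2 (0.25). With centred libraries the paired fit gave 0 higher and 10 lower, against 4.99% and 4.32% of all tested genes. The further ones were Foxc1 (-0.23, adjusted p = 0.0267) and Ap1s2 (-0.23, 0.0397).

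**Figure D5:**
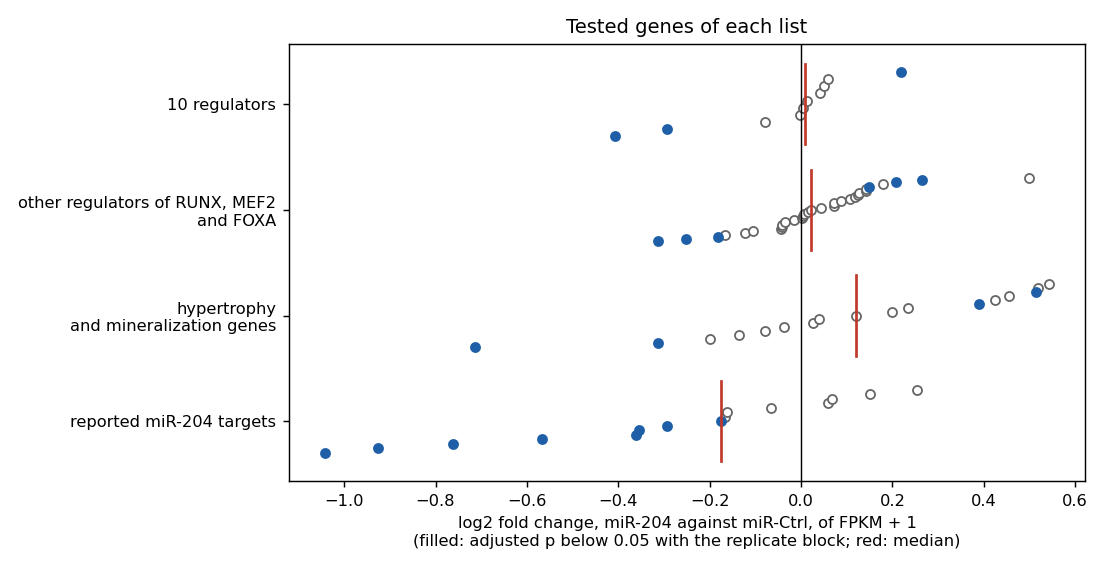
Log2 fold change of FPKM + 1, miR-204 against miR-Ctrl, for each tested gene of the 10 regulators and of the 3 lists set beside them, spread vertically by rank. Filled points passed the paired test and red bars are medians. The medians are 0.0085 for the 10 regulators, 0.021 for the other regulators, 0.12 for hypertrophy and mineralization genes and -0.18 for reported miR-204 targets.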

How the data were processed

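The authors deposited 1 table of FPKM values for 24067 genes and 8 libraries of polyadenylated, stranded RNA. Per the submitters' processing notes it was made with TopHat and Cufflinks 2.2.1 on mm10. No source used here gives the Cufflinks mode, the annotation or the filters. FPKM are not counts, so no count model was used, and a few very abundant genes can lower the FPKM of all others. Of the symbols, 27 had become calendar dates and 131 were missing, and none of the 10 regulators was affected. FPKM summed to 416560 to 490818 per library, and depth is known only relative to miR-Ctrl replicate 1.

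The test was limma 3.58.1 (R 4.3.3) with a trended prior, two-sided, on log2(FPKM + 1) of genes averaging 1 FPKM or more, with Benjamini-Hochberg adjustment and a threshold of 0.05. Adjusted p-values come from this fit without the block, from the paired fit that adds it, or from the alternative named beside the value. A fold change on this scale understates the change of low genes. Equal numbers were taken as pairs on the evidence of the data, not of a label: across genes, deviations from the group means correlated at 0.44 in pair 1, 0.816 in pair 2, 0.756 in pair 3 and 0.619 in pair 4, always highest within a pair. The scripts were tested on simulated data. Seed matches used GENCODE M21. The position and letters of 1 match are not reported here. Named were all 10 regulators, from each list up to 6 genes past the paired test and the 2 of highest mean, and the 4 genes most similar to Runx2 and to Foxa2. Col10a1, Ibsp, the other markers named singly and the further genes named beside a count were chosen after their values were seen. The regulators and lists were chosen with earlier results of these data known. Alternatives were the block, pseudocounts, filters, scalings and leaving out libraries or pairs.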

Additional observations from a re-analysis of the deposited data

Results flagged for a closer look

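Runx1 stood out in replicate 2 of both groups. It was at 15.3 FPKM in miR-Ctrl replicate 2, where the other 3 miR-Ctrl libraries reached 4.00, and at 12.6 FPKM in miR-204 replicate 2, where the other 3 miR-204 libraries reached 4.17. The gap to the next library was 0.849 and 0.845 of the group's whole range, above Dixon's 95% critical value for 4 libraries. Of the 20 groups of values examined (10 genes in 2 groups), these were the 2 that passed, and chance alone passes about 1 in 20. The share of all tested genes that pass was not computed. Both replicate 2 libraries lay above the other 6 in 30.5% of all tested genes, so high values there were not particular to Runx1. Libraries of equal number resembled each other, so the 2 groups that passed are not independent of each other.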

How the results depend on the processing

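The counts over all genes depended most on the block. With it 1436 genes were higher and 329 lower, against 3 and 21 without it. Adding centring gave 579 and 502, adding quantile normalization 555 and 536, and adding a pseudocount of 0.1 FPKM 1434 and 332. Without the block, centring gave 8 and 55, quantile normalization 7 and 66, and no filter on low values 0 and 9 (limma, with 1123 and 357 at an unadjusted p below 0.05). With the block and without pair 1, 2, 3 or 4 the counts were 137 and 93, 2828 and 535, 264 and 153, and 88 and 82. Leaving out single libraries or pairs, with and without the block, gave 0 to 2828 higher and 0 to 535 lower. Without the block and without pair 1, 3 or 4, limma called 0 and 0, with 412 and 151, 433 and 190, and 374 and 147 at an unadjusted p below 0.05. Of the 10 regulators, 1 was higher and 2 lower with the block, also with a pseudocount of 0.1 FPKM; 0 and 2 with the block and centring or quantile normalization; and 0 to 1 and 0 to 2 when libraries were left out. Without the block, these counts were 0 and 0 under every alternative run, with 0 or 1 regulator higher and 1 lower at an unadjusted p below 0.05. Runx2, Foxa2 and Cbfb kept their direction under all alternatives in which they were tested; with libraries left out, Runx2 ranged from -0.35 to -0.26, Foxa2 from -0.61 to -0.17 and Cbfb from 0.15 to 0.27. Regulators with a mean under 5 FPKM gave no value at that filter. Genes near 0 changed sign. With centring and with quantile normalization, each with or without the block, Runx1 was at -0.014 and -0.022, Runx3 at -0.059 and -0.072, Mef2c at -0.023 and -0.037, Hdac4 at -0.052 and -0.066, and Foxa3 at -0.0049 and -0.035. With libraries left out, Runx1 ranged from -0.37 to 0.58, Runx3 from -0.085 to 0.087, Sp7 from -0.27 to 0.043, Dlx5 from -0.066 to 0.096, Mef2c from -0.082 to 0.14, Hdac4 from -0.071 to 0.098 and Foxa3 from -0.034 to 0.14. Centring moves the fold change of every gene by the same amount, and the median over all tested genes went from 0.064 to 0.00012. The cause of the sign changes with quantile normalization or with libraries left out was not tested. The number of regulators with a 7mer or 8mer was 6 also over all annotated coding transcripts. Depth was lowest in replicate 2, which makes low values there less precise.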
